A study of Mus musculus with 8 samples.

Results

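Subcutaneous white fat of MKRN1-null and WT mice on a high-fat diet (HFD) is described here gene by gene. The members are the genes that 4 adipose RNA-seq libraries measured with an FPKM (fragments per kilobase of transcript, scaled to the depth of the library) of at least 1 in 2 or more of them, which were 12164 of 24532 annotated genes, and the 4 libraries belong to a series of 8 that also covers liver. MKRN1 is an E3 ubiquitin ligase, an enzyme that marks other proteins for degradation, and the comparison asks which transcripts of fat under HFD differ when it is missing. All mice were C57BL/6 males that started the HFD at 6 weeks of age, ate it for 19 weeks according to the labels, and were 24 weeks old, so that the WT controls had eaten the HFD as well. The labels' start, length and age do not add up exactly, and the study's methods give another length of feeding. The WT group and the MKRN1-null group, which lacks the gene in every tissue and not in fat alone, held 2 libraries each. MKRN1-null animals came from a line crossed repeatedly to C57BL/6 and WT animals were their littermates.

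Subcutaneous fat is mostly adipocytes by volume, which store triglyceride, release fatty acids by lipolysis and secrete hormones such as adiponectin, leptin and adipsin. Between them lie capillaries, pericytes, fibroblasts and their progenitors, macrophages and other leukocytes, and an extracellular matrix that is remodelled as the depot grows. In obesity the depot takes up more macrophages and builds more matrix, and insulin controls both its fatty acid synthesis and its release of stored fat.

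Mkrn1 (Entrez 54484, chr6:39397816-39420369 of mm10, minus strand) was measured first, as a check of the labels. Its FPKM was 16.8 and 19.3 in the WT libraries and 4.58 and 2.90 in the MKRN1-null libraries, so that the genotypes did not overlap and MKRN1-null fat kept some reads over the gene. Nearly all of the signal sat on 1 of the 2 annotated transcripts, with 16.7 and 19.3 FPKM in WT, against 4.57 and 2.89 in MKRN1-null fat. The log2 fold change, here and below MKRN1-null minus WT on the log2(FPKM + 1) scale, was -2.02 (standard error 0.26, adjusted p = 0.68 from limma, unadjusted p = 0.000739). Its paralogue Mkrn2 had 11.4 and 11.4 FPKM in WT, against 13.4 and 20.0 in MKRN1-null fat.

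The adiponectin gene Adipoq had 2899 and 2873 FPKM in WT, against 3824 and 1666 in MKRN1-null fat, and all 20 genes of an adipocyte identity list passed the filter. Together these 20 genes held 10.1% and 10.3% of the summed FPKM in WT, and 11.6% and 5.40% in replicates 1 and 2 of the MKRN1-null group. In that last library a list of 26 contractile genes of skeletal muscle held 18.4% of the summed FPKM, against 0.0223% and 0.0717% for WT and 0.0199% for the other MKRN1-null library. Its skeletal actin gene Acta1 reached 18463 FPKM, against 20.3 and 56.6 for WT and 27.3 for the other MKRN1-null library, and its fast myosin gene Myh4 6999, against 0.267, 8.04 and 0. A list of 19 muscle genes of energy metabolism and calcium handling held another 7.32% there and at most 0.0391% elsewhere. With bulk RNA, fewer cells of a type and less RNA per cell cannot be told apart, and how much of each difference below the muscle RNA makes up was not tested. MKRN1-null replicate 2 was also the shallowest library, with 5.72 aligned gigabases against 9.12 to 9.24 in the others, and genes with an FPKM of at least 1 numbered 11741 to 12171 in the 4 libraries.

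**Figure D1:**
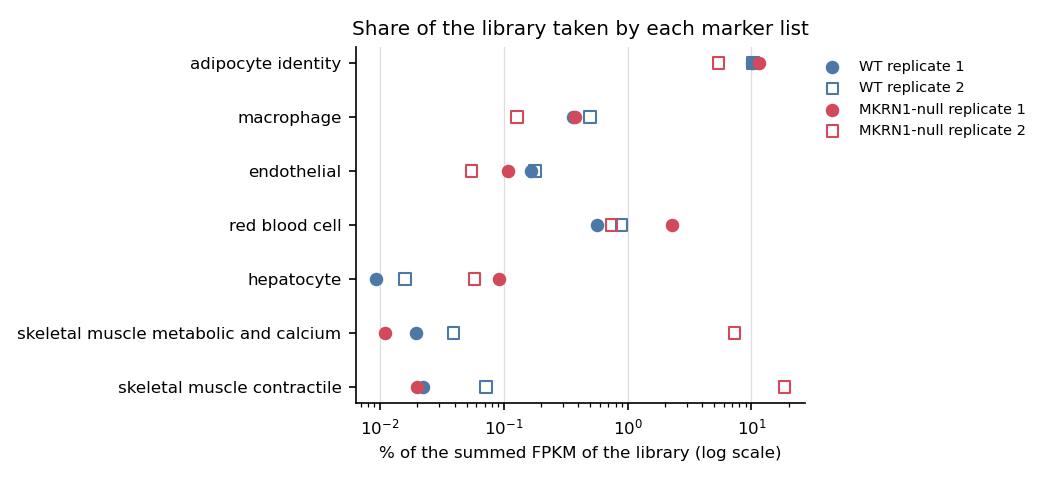
Share of each adipose library's summed FPKM, in percent on a log axis, that 7 marker lists hold, with 1 point per library, colour for genotype and shape for replicate. MKRN1-null replicate 2 stands apart at 18.4% and 7.32% for the muscle lists and lies lowest for the adipocyte, macrophage and endothelial lists, and MKRN1-null replicate 1 lies highest for the red blood cell list at 2.29%.

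Because a single library was rich in muscle transcripts, a gene is called higher or lower below when both MKRN1-null values lay on 1 side of both WT values, and it is called separated when the nearest values of the genotypes were also at least 0.58 apart on the log2 scale, a factor of about 1.5. Of 12164 genes, 1098 were higher (9.03%) and 4396 lower (36.1%), together 5494 (45.2%). Of all genes 50 (0.411%) were higher and separated and 293 (2.41%) lower and separated, together 343 (2.82%). The median log2 fold change of all genes was -0.20, or -0.04 in MKRN1-null replicate 1 and -0.38 in replicate 2. After median-of-ratios scaling, which removes that shift, 2657 genes were higher (21.8%) and 3051 lower (25.1%), and 81 (0.666%) and 219 (1.8%) were separated. No gene passed an adjusted p of 0.05 in limma's test, where 785 genes (6.45%) had an unadjusted p under 0.05, and by looser limits, an unadjusted limma p of at most 0.05 and a log2 fold change of at least 0.58 in size, 86 genes (0.707%) were higher and 652 (5.36%) lower. No gene named below therefore has an adjusted p under 0.05, and p-values measure the spread between 2 samples of a group. The median standard deviation between replicates was 0.084 on the log2 scale in WT and 0.33 in MKRN1-null fat. Replicate 2 lay more than 1 log2 unit below replicate 1 of the MKRN1-null group in 55 of the 293 separated lower genes, and more than 1 log2 unit above it in 6 of the 50 separated higher genes. Among all 12164 genes, replicate 2 lay that far below replicate 1 in 1349 and that far above it in 481.

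The genes that stood highest above WT in both MKRN1-null libraries were Cfd and Cyp2e1. Cfd (Entrez 11537, chr10:79890853-79892655) encodes adipsin, a serine protease that adipocytes secrete and that starts the alternative complement pathway. It had 1231 and 1271 FPKM in WT, against 5077 and 5483 in MKRN1-null fat, and the MKRN1-null libraries were close to each other although the identity list took 11.6% of the summed FPKM in replicate 1 and 5.40% in replicate 2. The log2 fold change was 2.08 (standard error 0.42, unadjusted p = 0.00473). Cyp2e1 (chr7:140763832-140774977), a cytochrome P450 gene whose product oxidises ethanol, acetone and other small molecules, had 40.3 and 72.7 FPKM in WT, against 451 and 278 in MKRN1-null fat (2.69, standard error 0.44, unadjusted p = 0.00205). Cfd and Cyp2e1 stayed separated after median-of-ratios scaling and after scaling to the genes outside the muscle lists.

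Other genes of this group encode enzymes and regulators of several kinds. Cyp2f2, another P450 gene, had 2.35 and 1.57 FPKM in WT, against 8.16 and 9.33 in MKRN1-null fat. Sult1e1, the oestrogen sulfotransferase gene, had 2.23 and 4.18 against 23.3 and 9.50, and the oestrogen receptor gene Esr1 had 3.03 and 3.44 against 6.13 and 5.80. Gpx3, which encodes a secreted glutathione peroxidase, had 143 and 152 against 299.7 and 378. The other genes of this group are less abundant. Fam13a, a gene of adipocytes with a GTPase-activating domain, had 8.72 and 8.57 against 24.3 and 23.5, and the MYC family transcription factor gene Mycl 0.644 and 1.10 against 5.16 and 5.95. The amino acid transporter gene Slc43a1 had 4.93 and 3.70 against 10.1 and 16.8, and Atp6v0e2, a subunit gene of the vacuolar proton pump, 10.4 and 8.88 against 21.0 and 20.0. Cul5, which encodes the scaffold of a family of ubiquitin ligases, had 2.24 and 2.25 against 5.64 and 10.5. That the genotypes did not overlap in these genes follows from the ranking by distance, and Esr1 was picked after its values had been seen. Cyp2f2, Sult1e1, Mycl, Slc43a1 and Cul5 reached an FPKM of 5, the limit for this ranking, in MKRN1-null fat only. Their place in it thus rests on the group where they are high. The hairpin locus Mir6935 was higher too, at 5.97 and 5.49 against 14.4 and 55.1, but a library of poly(A) RNA does not measure the mature microRNA.

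**Figure D2:**
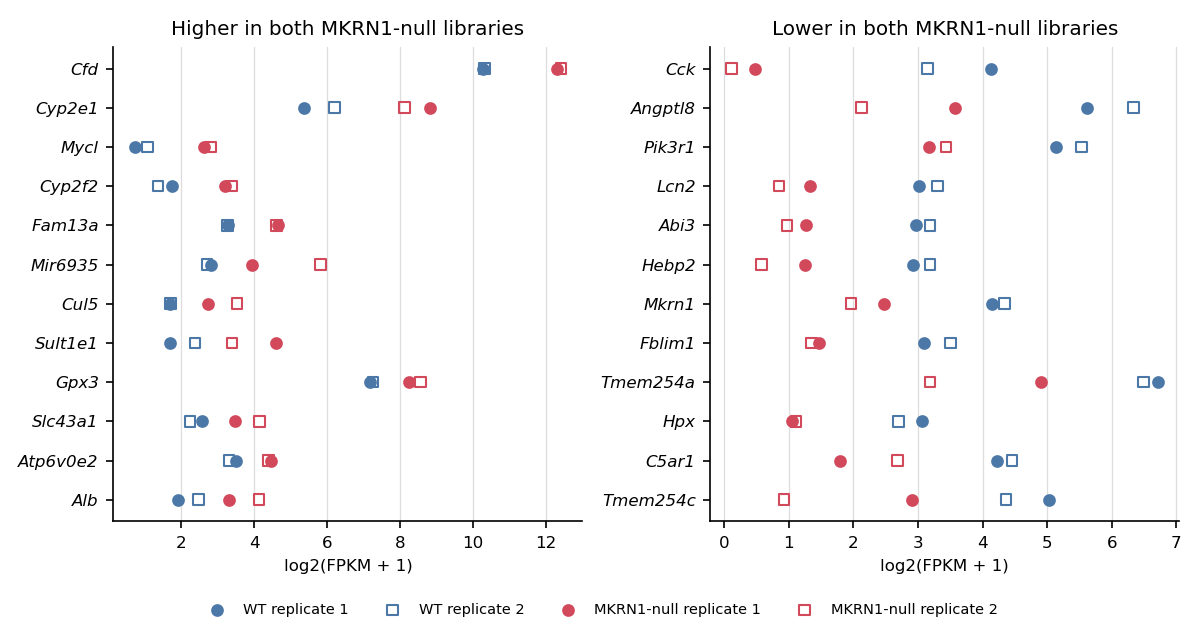
log2(FPKM + 1) of the 12 genes in each direction with the largest distance between the genotypes, with 1 point per adipose library, colour for genotype and shape for replicate. The MKRN1-null points of Cfd, Fam13a and Mycl nearly coincide, whereas those of Mir6935, Tmem254a and Tmem254c lie far from each other.

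The lowest genes against WT included hormones and secreted proteins. Cck (chr9), the gene of the peptide hormone cholecystokinin, had 16.6 and 7.89 FPKM in WT, against 0.395 and 0.0827 in MKRN1-null fat, a log2 fold change of -3.35 (standard error 0.39, unadjusted p = 0.000432). Angptl8 (chr9), whose product is made after a meal and restrains lipoprotein lipase in other tissues, had 48.1 and 79.6 against 10.9 and 3.37 (-3.13, standard error 0.56, unadjusted p = 0.00302). As the ranking by distance requires, both MKRN1-null libraries lay far below WT for these hormone genes. Lcn2, which encodes the iron-siderophore carrier lipocalin 2, had 7.12 and 8.88 against 1.5 and 0.798, and the haem carrier gene Hpx 7.37 and 5.48 against 1.08 and 1.16. C5ar1, the receptor of the complement fragment C5a on myeloid cells, had 17.6 and 20.9 against 2.48 and 5.42. Abi3, a regulator of the actin skeleton, had 6.81 and 8.09 against 1.42 and 0.964, and Fblim1, a gene of cell adhesion sites, 7.58 and 10.3 against 1.78 and 1.55. Hebp2, a haem-binding protein gene, had 6.59 and 8.12 against 1.37 and 0.494. Cck, Lcn2, Hpx, Abi3, Fblim1 and Hebp2 reached an FPKM of 5, the limit for this ranking, in WT only. Cck also passed the filter of an FPKM of at least 1 only through the WT libraries. Tmem254a and Tmem254c also belonged here, but they are near-identical copies in 1 cluster on chromosome 14, and reads may have been split between them.

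Pik3r1 (chr13:101680761-101768217), the gene of the p85α regulatory subunit through which insulin activates phosphoinositide 3-kinase, was the most separated gene of insulin signalling. It had 34.2 and 45.4 FPKM in WT, against 7.99 and 9.79 in MKRN1-null fat (-2.04, standard error 0.26, unadjusted p = 0.000669). Both annotated transcripts showed the difference. The long one, which spans 87457 bases, had 22.9 and 30.5 FPKM against 5.93 and 7.89, and the short one, which starts further inside the gene and spans 11870 bases, had 11.3 and 14.9 against 2.06 and 1.91. Of 28 insulin signalling genes, all of them tested, 15 were lower (53.6%, against 36.1% of all genes) and 1, Irs1, higher. The catalytic subunit gene Pik3cb had 18.0 and 18.2 FPKM in WT, against 12.4 and 6.07 in MKRN1-null fat, and the receptor-binding adaptor gene Grb14 52.4 and 52.7 against 32.7 and 17.3. The regulatory subunit gene Pik3r3 had 3.46 and 4.14 against 2.60 and 1.73, and the kinase gene Gsk3b 13.2 and 12.9 against 8.96 and 8.21. The receptor itself was level, with 12 and 12.1 FPKM of Insr in WT and 12.7 and 11.7 in MKRN1-null fat, and Akt2 was close to it, at 99.2 and 98.8 against 90.9 and 82.8. Irs1 had 3.94 and 4.50 against 4.74 and 14.8, and the library with 14.8 was the one rich in muscle transcripts. After median-of-ratios scaling 6 genes of the list were higher and 11 lower, where 21.8% and 25.1% of all genes were.

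Genes of sterol synthesis and other targets of the transcription factor SREBP2, which cells raise when their sterol level is low, made up a list of 26. Of these 25 were tested and 23 were lower (92%, against 36.1% of all genes), none higher. In MKRN1-null replicate 1, with few muscle transcripts, 23 were below both WT values, against 44.8% of all genes. In the muscle-rich replicate 2 it was 24, against 71.1%. Median-of-ratios scaling left 21 lower and 1, Fdft1, higher, where 25.1% and 21.8% of all genes were. The sum of the list held 0.199% and 0.185% of all FPKM in WT, against 0.126% and 0.0524% in MKRN1-null fat. The median log2 fold change was -0.88, with -0.44 in MKRN1-null replicate 1 and -1.41 in replicate 2, beside -0.04 and -0.38 for all genes.

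The promoters of this list were searched for 8 bases of the sterol regulatory element, TCACNCCA on either strand, where N is any base. The search ran from 250 bases before to 50 after each RefSeq start site (GRCm38.p6). Of the 25 tested genes 18 have an entry and 3 hold the motif (16.7%), against 1343 of all 27025 promoters (4.97%) and 430 of the 9626 promoters of genes tested in fat (4.47%). Of the separated lower genes with an entry, 9 of 214 hold it (4.21%). The stretches below run 5′ to 3′ on the strand of the gene, and the motif is in capitals. Counted from the start site, it begins at -137 in Hmgcs1 (chr13:119690178-119690257, plus strand), at -177 in Msmo1 (chr8:64733712-64733791, minus strand) and at -162 in Srebf2 (chr15:82147071-82147150, plus strand).
Hmgcs1: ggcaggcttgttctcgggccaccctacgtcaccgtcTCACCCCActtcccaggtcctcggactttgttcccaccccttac
Msmo1: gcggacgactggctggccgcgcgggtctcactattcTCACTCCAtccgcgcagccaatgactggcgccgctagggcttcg
Srebf2: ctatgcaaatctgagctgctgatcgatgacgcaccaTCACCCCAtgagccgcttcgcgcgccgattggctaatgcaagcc
A match is a run of letters and not a measured binding site. Hmgcs1, the gene of the synthase that opens the mevalonate pathway, had 201 and 205 FPKM in WT, against 149.5 and 47.1 in MKRN1-null fat. Msmo1, a demethylase gene of the later steps, had 17.0 and 16.8 against 12.4 and 5.22. Srebf2, which encodes SREBP2 itself, had 10.2 and 12.3 against 8.72 and 6.63. None of these 3 genes was separated by 0.58, although each was lower in both MKRN1-null libraries.

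Of the 3 separated genes of the list, Insig1 and Mvd are described here. Insig1, which encodes a sterol sensor that holds SREBPs in the endoplasmic reticulum and is itself their target, had 239 and 199.8 FPKM in WT, against 105 and 40.2 in MKRN1-null fat (-1.73, standard error 0.52, unadjusted p = 0.0223). The decarboxylase gene Mvd had 12.8 and 13.2 against 7.11 and 3.32 (-1.24, standard error 0.35, unadjusted p = 0.0182). At the looser limits 7 of the 25 were lower, where 5.36% of all genes were. They also included the cyclase gene Lss, at 13.3 and 11.9 against 8.01 and 2.44, Dhcr7 of the last step, at 14.0 and 15.4 against 9.06 and 3.65, and the sterol carrier gene Stard4. The exceptions were Fdft1, the squalene synthase gene, at 9.14 and 11.0 against 10.8 and 14.3, and Ebp, a sterol isomerase gene, at 24.3 and 26.2 against 30.8 and 13.8.

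**Figure D3:**
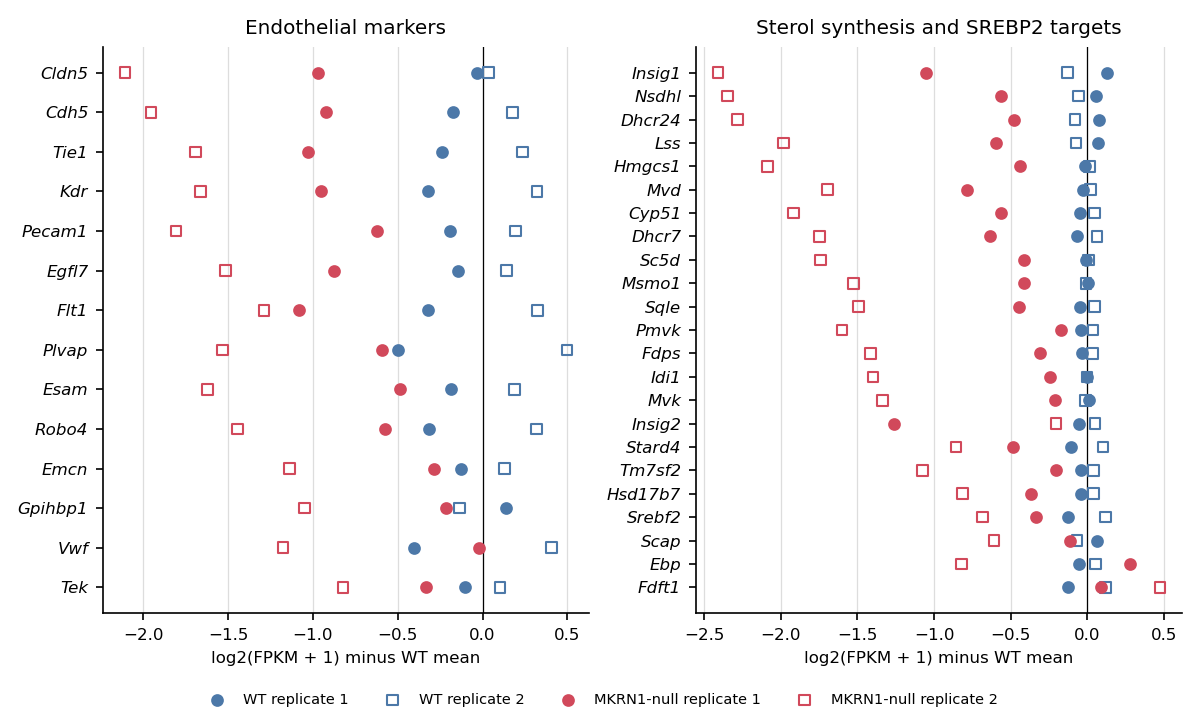
log2(FPKM + 1) minus the WT mean for the tested endothelial markers (left) and 23 of the 25 tested sterol genes (right), with 1 point per adipose library, colour for genotype and shape for replicate. Both MKRN1-null points lie left of both WT points for all markers but Vwf on the left and for all plotted genes but Fdft1 and Ebp on the right, and MKRN1-null replicate 2 is the lower of the pair in most of them.

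Markers of endothelium, the lining of blood vessels, had the largest share of lower genes among the lists described here. Of 15 markers 14 were tested and 13 were lower (92.9%, against 36.1% of all genes), none higher. The count was 13 also after either of the other scalings, and 25.1% of all genes were lower after median-of-ratios scaling. All but Vwf were below both WT values in MKRN1-null replicate 1 (92.9%, against 44.8% of all genes). Lower and separated were 6 of the 14, where 2.41% of all genes were. Cldn5, a tight junction gene, had 142 and 148 FPKM in WT, against 73.7 and 32.9 in MKRN1-null fat (-1.54, standard error 0.45, unadjusted p = 0.0197). Cdh5, which encodes VE-cadherin, had 62.5 and 79.9 against 36.8 and 17.5, and the adhesion gene Pecam1 60.1 and 78.9 against 44.3 and 19.0. Replicate 2 of the MKRN1-null group was lowest in each of these junction genes. Among the receptors, Tie1 had 17.9 and 25.2 against 9.90 and 5.89, the VEGF receptor gene Flt1 5.30 and 8.86 against 2.72 and 2.23, and the main VEGF receptor gene Kdr 15.5 and 24.8 against 9.68 and 5.51. The secreted factor gene Egfl7 had 79.8 and 97.5 against 47.7 and 30.2. The von Willebrand factor gene Vwf overlapped, at 3.53 and 6.95 against 4.91 and 1.66. The list held 0.167% and 0.178% of the summed FPKM in WT, against 0.109% and 0.0546% in MKRN1-null fat, and its median log2 fold change was -1.12, with -0.61 and -1.52 in the MKRN1-null libraries.

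Other vessel genes that are not on that list were picked after their values had been seen. The transcription factor gene Sox17 had 6.20 and 6.44 FPKM in WT, against 2.53 and 1.96 in MKRN1-null fat. The apelin receptor gene Aplnr had 20.6 and 28.8 against 7.13 and 4.07, and the endothelial nitric oxide synthase gene Nos3 27.7 and 27.9 against 18.1 and 10.3. All were separated by at least 0.58. Of 12 genes of pericytes and smooth muscle, the cells that wrap vessels, 11 were tested. Of these 5 were lower (45.5%, against 36.1% of all genes) and 1 higher (9.09%, against 9.03%). Their proteoglycan gene Cspg4 had 18.3 and 17.0 against 6.63 and 4.78 (-1.49, standard error 0.24, unadjusted p = 0.00182), Notch3 10.1 and 11.9 against 5.36 and 4.37, and the PDGF receptor gene Pdgfrb 28.3 and 28.2 against 15.8 and 9.35. The pericyte marker Rgs5 differed less, at 91.0 and 82.8 against 73.8 and 48.8. Markers of adipocyte progenitors and fibroblasts were unlike the vessel genes in MKRN1-null replicate 1. There 10 of 15 tested lay above both WT values (66.7%, against 30.2% of all genes). In replicate 2, however, 13 lay below them (86.7%, against 71.1% of all genes). Taking both libraries, 2 were lower (13.3%, against 36.1%) and none higher. The progenitor gene Pdgfra had 13.1 and 12.5 against 14.0 and 9.79.

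**Figure D4:**
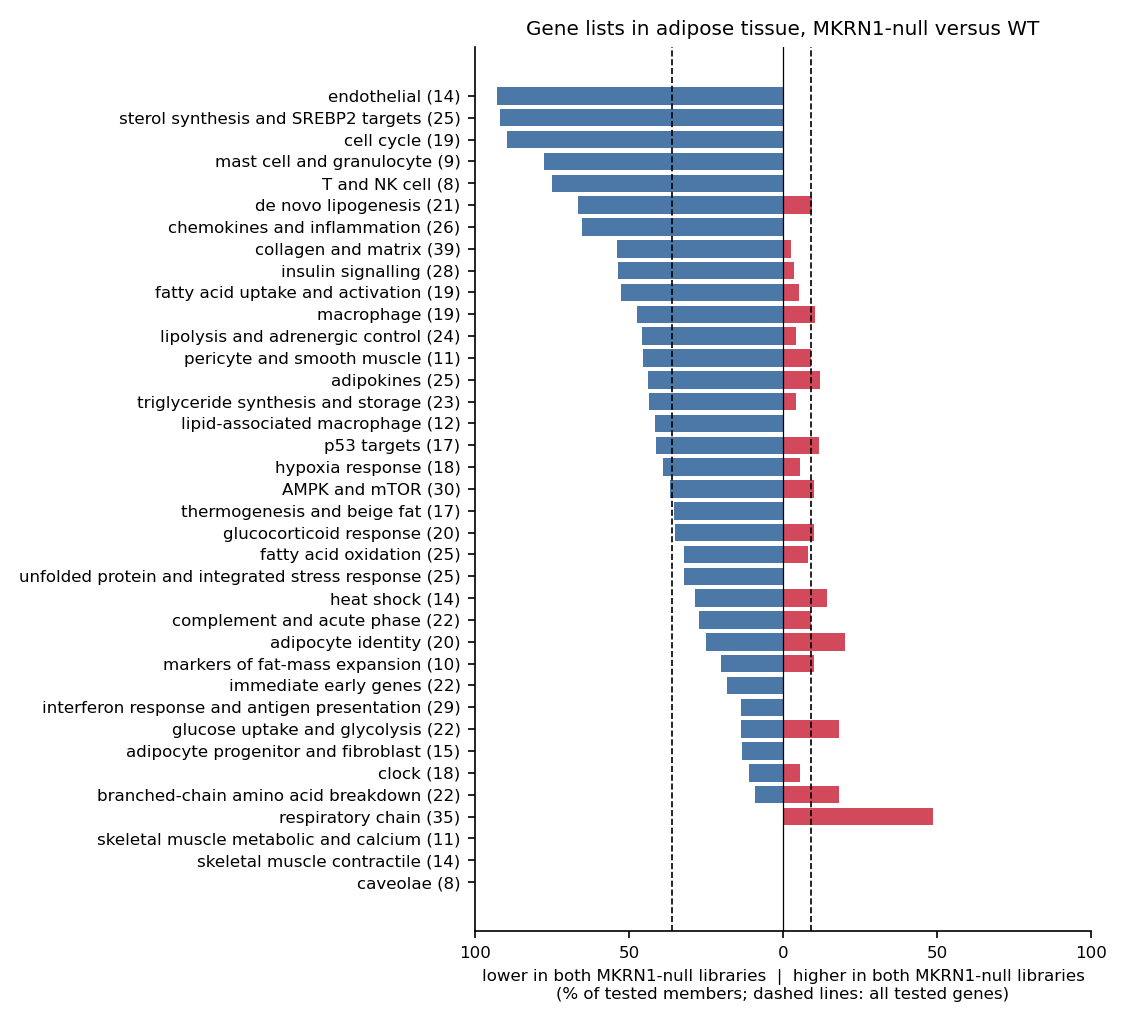
Percentage of the tested members of each gene list with at least 8 of them, their number in parentheses, that were lower (left) or higher (right) in both MKRN1-null adipose libraries than in both WT libraries. Dashed lines mark all 12164 genes, at 36.1% lower and 9.03% higher; endothelial markers at 92.9% lower and respiratory chain genes at 48.6% higher lie farthest from them.

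Adipocyte genes differed in both directions. Of the 20 identity genes 4 were higher (20%, against 9.03% of all genes) and 5 lower (25%, against 36.1%). Pck1, which makes the glycerol backbone for re-esterification of fatty acids, had 277 and 248 FPKM in WT, against 535 and 473 in MKRN1-null fat (0.94, standard error 0.31, unadjusted p = 0.0323). The β3-adrenergic receptor gene Adrb3, through which noradrenaline starts lipolysis, had 28.0 and 54.6 against 93.3 and 93.6 (1.24, standard error 0.39, unadjusted p = 0.0258). The carbonic anhydrase gene Car3, which is abundant in lean fat, had 6619 and 6619 against 11358 and 8274. These are among the 4 higher genes of the list, so by that definition each lay above both WT values in both MKRN1-null libraries. What the muscle transcripts of replicate 2 add to these values was not tested. The nuclear receptor gene Pparg, which drives adipocyte differentiation, had 115 and 116 against 102 and 54.5, and its partner Cebpa 325 and 297 against 271 and 165. The droplet coat gene Plin1 had 847 and 723 against 752 and 439, so that only replicate 2 lay outside the WT range. Fat-mass markers were mixed as well, with Nnat at 654 and 671 against 1360.3 and 1100.5 and Mest at 666 and 505 against 443 and 84.5.

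Of 26 adipokine genes 25 were tested, and 11 were lower (44%, against 36.1% of all genes). Cfd, Agt and Nampt were higher (12%, against 9.03%). The angiotensinogen gene Agt had 6.00 and 7.44 FPKM in WT, against 15.6 and 11.5 in MKRN1-null fat. The leptin gene Lep had 1333 and 1233 against 1347 and 306, so that replicate 1 was above the WT range.

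Of 21 genes that make fatty acids from citrate and acetate (de novo lipogenesis), 14 were lower (66.7%, against 36.1% of all genes) and 2 higher. In MKRN1-null replicate 1, 15 were below both WT values (71.4%, against 44.8% of all genes). Slc25a1, which exports citrate from mitochondria, had 476 and 495 FPKM in WT, against 308 and 97.0 in MKRN1-null fat and was the 1 separated gene of the list. The acetyl-CoA synthetase gene Acss2 had 66.8 and 69.9 against 44.8 and 14.8, and the desaturase gene Scd2 114 and 111 against 76.7 and 17.0. The desaturase gene Fads2 had 8.20 and 4.42 against 3.15 and 1.98 and alone passed the looser limits. Scd1, far more abundant than these, had 4867 and 4466 against 5721 and 2462. Srebf1, which encodes the SREBP of this pathway, had 113 and 99.7 against 75.3 and 53, but its annotated transcripts parted. The major one had 102 and 90.0 against 65.5 and 29.7, and the minor one 10.5 and 9.70 against 9.79 and 23.4, with its highest value in the muscle-rich library.

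Among 23 genes of triglyceride synthesis and storage 10 were lower (43.5%, against 36.1% of all genes) and 1, Pck1, higher. Agpat2, whose loss causes lipodystrophy, had 629 and 647 FPKM in WT, against 339 and 126 in MKRN1-null fat, and the droplet coat gene Plin2 652 and 682 against 389 and 102. The glycerol kinase gene Gk had 4.62 and 6.56 against 2.49 and 1.73. All of these were separated. Of 20 genes of fatty acid uptake and activation 19 were tested, 10 were lower (52.6%, against 36.1% of all genes) and 1 higher. The acyl-CoA synthetase gene Acsl1 had 823 and 753 against 612 and 263. Fabp5, a binding protein gene, had 534 and 563 against 348 and 87.3. Of 25 genes of lipolysis and its adrenergic control 24 were tested. Lower were 11 (45.8%, against 36.1% of all genes) and 1, Adrb3, was higher. Hilpda, which encodes an inhibitor of the triglyceride lipase ATGL, had 51.3 and 68.8 against 21.3 and 7.19 (-2.16, standard error 0.53, unadjusted p = 0.011). Receptors that restrain lipolysis were also lower, the prostaglandin receptor gene Ptger3 with 70.4 and 64.9 against 44.8 and 14.3 and the adenosine receptor gene Adora1 with 49.0 and 43.2 against 30.3 and 10.7.

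Of 35 nuclear genes of the respiratory chain 17 were higher (48.6%, against 9.03% of all genes) and none lower. In MKRN1-null replicate 1, with few muscle transcripts, 18 exceeded both WT values (51.4%, against 30.2% of all genes). In replicate 2 it was 33 (94.3%, against 20.6%). After scaling to the genes outside the muscle lists 12 were higher. After median-of-ratios scaling it was 23, where 21.8% of all genes were higher. The differences were small in replicate 1, as for Atp5c1 of the ATP synthase, with 200.2 and 218 FPKM in WT, against 248 and 355 in MKRN1-null fat, and Ndufa9 of complex I, with 101 and 100.2 against 113 and 136. The median over the list was 0.09 in replicate 1 and 0.53 in replicate 2. Glucose uptake and glycolysis had medians of -0.03 and 1.17. Of 22 tested genes 4 were higher (18.2%, against 9.03% of all genes) and 3 lower (13.6%, against 36.1%). The insulin-dependent glucose transporter gene Slc2a4 had 49.9 and 49.1 against 58.5 and 139, and the lactate dehydrogenase gene Ldha 644 and 663 against 666 and 1762. In replicate 1 both were thus closer to WT than in replicate 2.

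**Figure D5:**
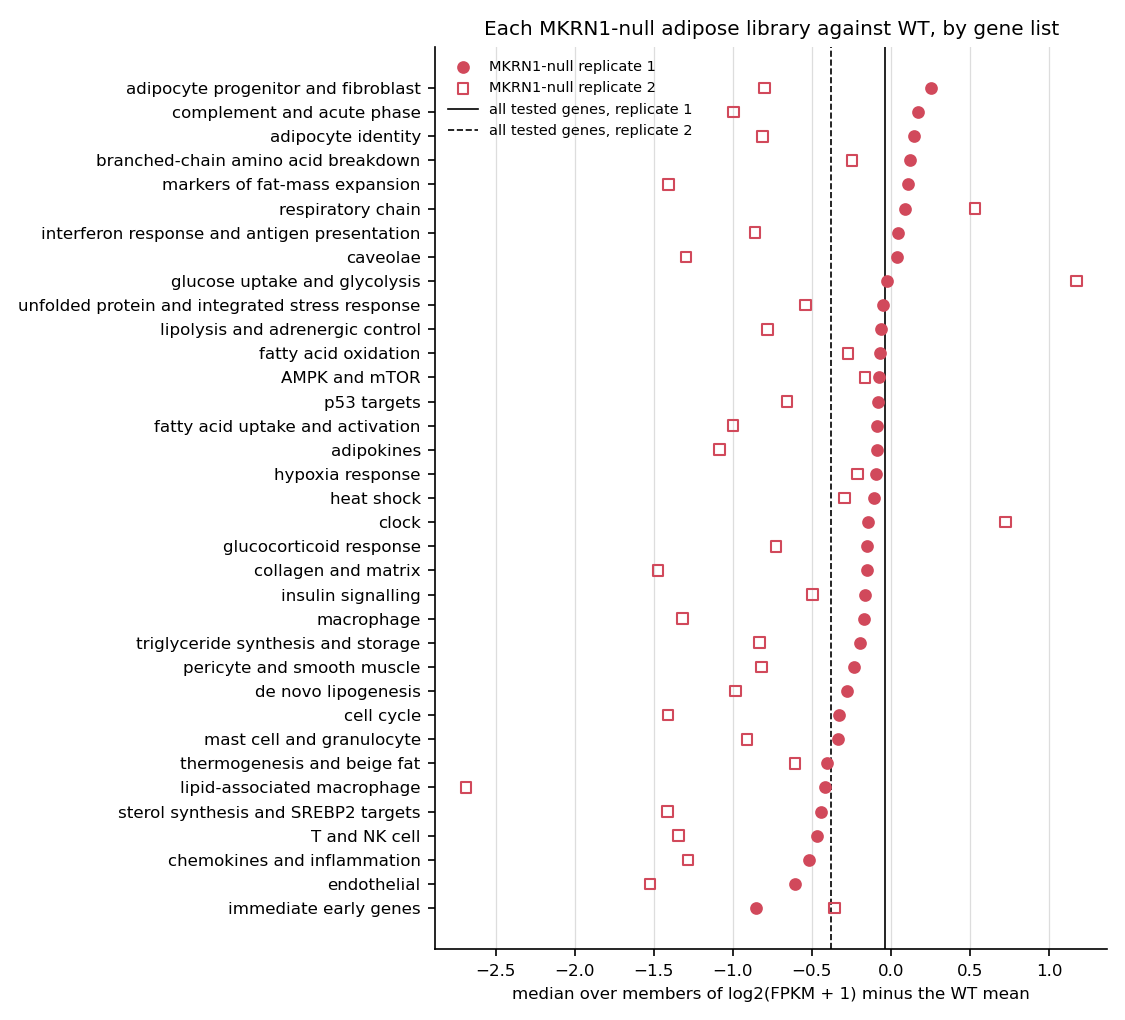
Median over the tested members of each gene list of log2(FPKM + 1) minus the WT mean, given for MKRN1-null replicate 1 (filled) and replicate 2 (open), with vertical lines at the medians of all 12164 genes. Replicate 2 lies left of replicate 1 for most lists and right of it for glycolysis, clock, immediate early and respiratory chain genes, and the endothelial, chemokine and sterol lists lie left of the lines in both.

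Of 25 fatty acid oxidation genes 8 were lower and 2 higher, near the shares of all genes. The carnitine palmitoyltransferase gene Cpt1a had 47.9 and 43.6 FPKM in WT, against 31.9 and 11.3 in MKRN1-null fat, while its muscle form Cpt1b had 5.20 and 3.78 against 2.88 and 72.2. Of 26 genes of thermogenesis and beige fat 17 were tested and none was higher. Lower were 6 (35.3%), close to the 36.1% of all genes. Those that passed the looser limits were the proton channel gene Otop1, at 12 and 11.8 against 6.63 and 4.79, the potassium channel gene Kcnk3, at 28.3 and 27.5 against 17.6 and 8.86, Gk, and the beige fat regulator Prdm16, at 2.68 and 2.54 against 1.68 and 1.17. The uncoupling protein gene Ucp1 reached an FPKM of 1 in 1 library only, with 0.675 and 0.512 in WT and 0.0539 and 32.6 in MKRN1-null fat. Ppargc1a, a coactivator of mitochondrial genes, had 0.815 and 0.809 against 0.718 and 2.90 and did not pass the filter either. Both were thus below WT in replicate 1 and above it in replicate 2. Of 22 genes of branched-chain amino acid breakdown 4 were higher (18.2%, against 9.03% of all genes) and 2 lower (9.09%, against 36.1%). In replicate 1 of the MKRN1-null group 16 were above both WT values (72.7%, against 30.2%). In replicate 2 of that group 16 were below them (72.7%, against 71.1%).

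Of 30 genes of AMPK and mTOR signalling, which sense energy and nutrients, 11 were lower (36.7%) and 3 higher (10%), close to the 36.1% and 9.03% of all genes. Ddit4, which encodes the mTOR inhibitor REDD1, had 89.1 and 74.9 FPKM in WT, against 34.5 and 8.49 in MKRN1-null fat (-2.17, standard error 0.66, unadjusted p = 0.0236). Strada, a partner of the kinase LKB1 that activates AMPK, had 6.27 and 7.13 against 3.85 and 3.74. These were the genes of the list that passed the looser limits. The AMPK catalytic subunit gene Prkaa1 had 9.68 and 10.8 against 11.0 and 6.96, and Prkaa2, the form of muscle, 1.38 and 1.54 against 1.28 and 17.0. The subunit gene Prkag3 had 4.18 and 2.89 against 5.24 and 29.9. Mtor itself overlapped, at 9.70 and 8.14 against 8.47 and 6.42.

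Of 30 genes of chemokines and inflammation 26 were tested, and 17 were lower (65.4%, against 36.1% of all genes). None was higher, and 8 were lower by the looser limits, where 5.36% of all genes were. Median-of-ratios scaling left 17 lower and made 2 higher, where 25.1% and 21.8% of all genes were. Ccl12 had 11.3 and 6.10 FPKM in WT, against 1.97 and 2.22 in MKRN1-null fat (-1.60, standard error 0.32, unadjusted p = 0.00472). Ccl2, the main attractant of monocytes, had 56.0 and 34.3 against 24.8 and 11.6, and Ccl4 5.64 and 2.93 against 1.3 and 0.628. The interferon-induced attractant gene Cxcl10 had 4.61 and 5.03 against 2.34 and 0.802, and the cytokine gene Tnf 2.62 and 1.48 against 0.808 and 0.274. Tnf, which counts among the lower genes, passed the filter only through the WT libraries. WT replicate 1 was the higher WT library for Ccl12, Ccl2, Ccl4 and Tnf, and the immediate early gene Fos, a sign of recent stimulation, was high in the same library, at 517 against 34.8 in WT replicate 2 and 79.5 and 153 in MKRN1-null fat. Its part in these differences was not tested. The early genes that were lower in both were Atf3, at 66.5 and 15.3 against 6.46 and 2.52, Fosl2, Rhob and Egr2, and 18 of 22 tested early genes overlapped.

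Of 19 macrophage markers 9 were lower (47.4%, against 36.1% of all genes) and 2 higher (10.5%, against 9.03%). The general marker Adgre1 had 25.9 and 39.0 FPKM in WT, against 23.9 and 7.44 in MKRN1-null fat, and Ms4a7 10.9 and 17.9 against 7.88 and 3.06. Lyve1, which lymphatic vessels express as well, was higher, at 12.5 and 9.85 against 28.1 and 19.2. The haemoglobin receptor gene Cd163 was higher by little, at 19.7 and 13.7 against 30.3 and 20.0. Mrc1 of the same list was lower, at 35.3 and 36.5 against 31.5 and 14.0. Of 12 markers of lipid-associated macrophages 5 were lower (41.7%, near the 36.1% of all genes) and none higher, and Trem2 had 23.5 and 58.8 against 20.1 and 1.3. The macrophage list held 0.361% and 0.497% of the summed FPKM in WT, against 0.378% and 0.127% in MKRN1-null fat, so its share in replicate 1 lay within the WT range. Of 15 markers of T and NK cells 8 were tested and 6 were lower (75%, against 36.1% of all genes), with Lck at 2.99 and 2.10 against 1.06 and 0.321. Among these Cd3d, at 2.28 and 1.43 against 0.749 and 0.311, passed the filter only through the WT libraries. Of 10 markers of mast cells and granulocytes 9 were tested and 7 were lower (77.8%, against 36.1% of all genes). The neutrophil gene S100a8 had 38.4 and 35.7 against 19.9 and 4.78, and S100a9 4.37 and 3.42 against 1.38 and 0.980. B cell markers were too low for most to be tested, and none of 4 was lower. Of 30 genes of interferon response and antigen presentation 29 were tested, 4 were lower (13.8%, against 36.1% of all genes) and none higher. In replicate 1 of the MKRN1-null group 14 lay above both WT values (48.3%, against 30.2%). All 29 lay below them in replicate 2, against 71.1% of all genes.

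Of 25 genes of complement and acute phase 22 were tested. Of these 6 were lower (27.3%, against 36.1% of all genes) and 2 higher (9.09%, against 9.03%). The haptoglobin gene Hp, a major transcript of fat, had 7694 and 7158 FPKM in WT, against 4533 and 1206 in MKRN1-null fat, and the complement gene C7 19.2 and 11.4 against 45.9 and 27.5. Of 39 genes of collagen and matrix 21 were lower (53.8%, against 36.1% of all genes) and 1 higher. The proteoglycan gene Lum had 117 and 118 against 62.2 and 20.3, the matrix gene Tnc 4.44 and 3.90 against 1.93 and 0.785, and the collagen cross-linking enzyme gene Lox 79.8 and 64.4 against 43.4 and 16.5. The fibrillar collagens overlapped, with Col1a1 at 321 and 248 against 316 and 119 and Col3a1 at 865 and 736 against 757 and 266. Col6a3, a collagen linked to obese fat, was lower, at 104 and 93.1 against 67.9 and 31.1.

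Of 20 cell cycle genes 19 were tested and 17 were lower (89.5%, against 36.1% of all genes), none higher. The count was 17 after median-of-ratios scaling too, where 25.1% of all genes were lower. In MKRN1-null replicate 1, 18 were below both WT values (94.7%, against 44.8% of all genes). The topoisomerase gene Top2a had 3.94 and 3.69 FPKM in WT, against 2.27 and 0.550 in MKRN1-null fat, and the ribonucleotide reductase gene Rrm2 4.58 and 3.71 against 2.38 and 0.997. The proliferation marker Mki67 had 2.62 and 2.46 against 1.68 and 0.460. The genes that overlapped were Aurka, at 2.19 and 2.69 against 1.95 and 2.71, and Pcna, at 45.4 and 54.3 against 48.5 and 24.7.

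Of 20 glucocorticoid response genes 7 were lower (35%, against 36.1% of all genes) and 2 higher, with Cebpb at 76.8 and 75.5 FPKM in WT, against 36.9 and 44.4 in MKRN1-null fat and Zbtb16 at 6.77 and 7.15 against 10.8 and 19.1. Of 17 tested p53 targets 7 were lower (41.2%, against 36.1%) and 2 higher (11.8%, against 9.03%). The stress hormone gene Gdf15 had 2.99 and 2.13 against 0.907 and 0.413 and the kinase gene Plk2 18.1 and 15.8 against 8.61 and 4.88. Gdf15 passed the filter only through the WT libraries. Of 18 tested hypoxia genes 7 were lower (38.9%, against 36.1%) and 1 higher (5.56%, against 9.03%), with Hif1a at 31.2 and 31.3 against 20.4 and 9.46. In the unfolded protein response 8 of 25 were lower (32%, against 36.1%) and none higher. In heat shock 4 of 14 were lower (28.6%, against 36.1%) and 2 higher (14.3%, against 9.03%). Of 18 tested clock genes 2 were lower (11.1%, against 36.1%) and 1 higher (5.56%, against 9.03%). None of the 8 caveolar genes was higher or lower in both libraries.

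Markers of other tissues were measured beside these results. Of 10 hepatocyte genes 3 passed the filter. They were Cyp2e1, the albumin gene Alb, at 2.77 and 4.52 FPKM in WT, against 8.96 and 16.5 in MKRN1-null fat, and Serpina3k, at 0.467 and 0.352 against 1.23 and 1.46, which passed only through its MKRN1-null values. The defining apolipoprotein gene Apoa1 had 0.122 and 0.155 against 0.0894 and 3.02 and the fibrinogen gene Fgb was listed at 0 in all but MKRN1-null replicate 2, at 0.647, so that in replicate 1 these markers were at or near 0. The transthyretin gene Ttr was listed at 0 in both WT libraries and had 0.126 and 1.89 in MKRN1-null fat. In the livers of the same series Alb had 33787 to 42772 FPKM. The red blood cell list held 0.565% and 0.897% in WT and 2.29% and 0.738% in MKRN1-null fat. Its adult β-globin genes summed to 1723 and 3169 FPKM in WT, against 4718 and 2369.7 in MKRN1-null fat, but the order of the single copies differed between libraries. Hbb-b1 had 1106 and 1991 against 0.112 and 1533, and Hbb-bs 18.5 and 71.9 against 3076 and 24.1. These are near-identical copies at 1 locus, so the level of each is uncertain. Most markers of skin and mammary epithelium, 12 of 14, were under the filter. The libraries were labelled male, with Xist at 0, 0, 0 and 0.00731 FPKM and the Y-linked gene Ddx3y at 21.4, 22.1, 19.6 and 14.8.

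Liver libraries of the same genotypes, 2 in each group, were set beside fat for the 9917 genes that passed the filter in both tissues. The MKRN1-null and WT livers were separated by at least 0.58 in 69 higher and 725 lower genes, against 27 and 181 of these genes in fat. Lower in both were 40 genes, which is 22.1% of the genes lower in fat and 5.52% of those lower in liver, where 7.31% and 1.83% of all 9917 were lower in liver and in fat. They included Mkrn1, Lcn2, Hpx, Mvd, Plin2, Hilpda, Lum and Pdgfrb. The TWEAK receptor gene Tnfrsf12a had 51.0 and 54.4 FPKM in WT, against 18.4 and 16.4 in MKRN1-null fat, beside 17.2 and 14.8 against 4.82 and 5.54 in liver. The signalling regulator gene Rgs2 had 11.1 and 10.8 against 4.76 and 2.37 in fat and 3.44 and 3.35 against 1.08 and 1.27 in liver. The genes higher in both tissues were Cyp2e1, Slc43a1 and Serpina3k, 11.1% of those higher in fat, where 69 of all 9917 were higher in liver. Serpina3k passed the filter in fat only through the MKRN1-null libraries. Slc43a1 passed it in liver only through the MKRN1-null livers, at 6.04 and 7.17 against 0.772 and 0.631 in WT. The replicate numbers may stand for the same mice in both tissues, so these counts may not be independent.

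Of the separated genes 3 were lower in fat and higher in liver, and 3 the reverse. Angptl8 was low in MKRN1-null fat, as above, but had 43.4 and 78.2 FPKM in WT, against 155 and 181 in MKRN1-null livers. The difference between the tissues' log2 fold changes, liver minus fat, was 4.64 (unadjusted p = 0.000479 for the interaction in limma). The receptor signalling inhibitor gene Spry4 had 23.0 and 15.6 against 7.87 and 3.49 in fat and 2.24 and 2.45 against 8.34 and 9.83 in liver (3.25, unadjusted p = 0.000287), and the thymidine kinase gene Tk1 7.99 and 8 against 4.22 and 2.53 and 7.62 and 6.89 against 16.0 and 23.0 (2.36, unadjusted p = 0.000276). Gpx3, Vnn1 and Orm3 were higher in fat and lower in liver, and Orm3 passed the filter in fat only through the MKRN1-null libraries, at 0.342 and 0.474 against 1.52 and 1.55. For Gpx3 the livers had 9.71 and 8.64 in WT and 3.06 and 3.26 in MKRN1-null mice (-2.48, unadjusted p = 2.02e-05). All of these genes were picked for separation in opposite directions in fat and liver of these same libraries. A large difference and a small p for the interaction thus follow from the choice and are no test. No gene had an adjusted p under 0.05 for the interaction in limma, where 766 genes (7.72%) had an unadjusted p under 0.05. Cfd had 5.50 and 16.7 FPKM in WT, against 23.5 and 6.79 in MKRN1-null livers and overlapped there.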

How the data were processed

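RNA-seq was carried out on subcutaneous fat and liver of WT and MKRN1-null mice, with 2 libraries per tissue and genotype. The authors deposited 1 transcript file per library with a coverage, an FPKM and a TPM value in the attribute text of each transcript (StringTie 1.3.3b per the file headers, mm10), made after alignment with HISAT2 and SAMtools (versions not given in the sources used here). FPKM values of transcripts were summed per Entrez gene, and 24462 of 24532 genes were given a symbol from the reference tables. The files hold no read counts, so depth in aligned gigabases was taken as the median ratio of coverage to FPKM over the more abundant transcripts. No counting interval was computed. Genes with an FPKM of at least 1 in 2 libraries were tested in the 4 adipose libraries by limma 3.58.1 (R 4.3.3) on log2(FPKM + 1) with a mean-variance trend and Benjamini-Hochberg adjustment, so fold changes of low genes are understated. The interaction of tissue and genotype was fitted over all 8 libraries and did not model mice that may be shared between tissues. The scripts were tested on simulated data.

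The genes, lists and tests were chosen with earlier results of these data known. Named genes are the 12 with the largest distance between genotypes in each direction among genes with an FPKM of at least 5 in 2 libraries, the 5 with the largest distance of each list, and a fixed set of metabolic genes. A further 34 genes were named after their values had been seen, among them Myh4, Tnfrsf12a, Rgs2, Spry4, Tk1, Vnn1, Orm3, Esr1 and Fos, the vessel genes Sox17, Aplnr and Nos3, and the list members given as exceptions. Some list members are counted but not reported here by name. Promoter sequences are those of RefSeq (GRCm38.p6). Alternatives were a pseudocount of 0.1, TPM values as deposited by the authors, other filters, other scalings, all libraries in 1 fit, a replicate block and leaving out each library. Tables were handled with Python 3.11.15, pandas 2.3.3 and numpy 2.4.6, and plots were drawn with matplotlib 3.10.9.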

Additional observations from a re-analysis of the deposited data

How the results depend on the processing

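With 2 libraries per genotype and no read counts, the precision of every value rests on these samples alone. The count of 343 separated genes was 542 with a pseudocount of 0.1, 550 with TPM values and 227 with an FPKM of at least 5, and ran from 539 to 4633 when 1 library was left out. The 5494 genes without overlap became 7209 to 11165. The 0 genes at an adjusted p under 0.05 became 1 with all libraries in 1 fit and 4 to 6290 when 1 library was left out, with 70 without WT replicate 1, 99 without WT replicate 2, 6290 without MKRN1-null replicate 1 and 4 without MKRN1-null replicate 2, and the lone sample of a group is then assumed to vary like the other group. The 738 genes at the looser limits were 436 with an FPKM of at least 5 and 1405 with all libraries in 1 fit, and 498 to 5202 when 1 library was left out. The 0 genes for the interaction became 16 without a filter, 1 after median-of-ratios scaling and 0 to 2647 when 1 library was left out. The log2 fold change of Mkrn1 ran from -2.28 to -1.77, with an adjusted p of 2.09e-05 to 0.704 over its alternatives. The cause of these shifts was not tested.

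The replicate numbers of the 2 genotypes share only a number, and deviations of same-numbered libraries correlated at 0.113 over 2 pairs. With the replicate block, 421 genes passed an adjusted p of 0.05 (157 higher and 264 lower), 1438 the looser limits and 1 the interaction, Mkrn1 kept -2.02 and passed, and so did 59 of the other named genes.

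The other named genes kept their direction under the other settings, with these exceptions. After median-of-ratios scaling the log2 fold changes were 0.0376 for Adipoq, 0.0404 for Akt2, 0.12 for Aurka, 0.0936 for Pdgfra and 0.00263 for Prkaa1. After scaling without muscle genes Aurka had 0.0338, and with TPM values Insr had -0.0780. When 1 library was left out, values ran from -0.31 to 9.04 for Acta1, -1.76 to 11.01 for Myh4, -0.49 to 3.75 for Cpt1b and -0.11 to 2.87 for Prkaa2. They ran from -0.79 to 0.41 for Adipoq, -2.07 to 0.0714 for Lep, -0.92 to 0.30 for Scd1, -1.24 to 0.16 for Col1a1 and -0.82 to 0.28 for Ebp. They ran from -0.22 to 0.11 for Aurka, -0.0356 to 0.0742 for Insr, -0.36 to 0.12 for Pdgfra and -0.50 to 0.0909 for Prkaa1. They ran from -2.22 to 1.64 for Fos, -10.38 to 0.0468 for Hbb-b1 and -0.59 to 6.35 for Hbb-bs.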

Other observations

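Some further separated genes are on no list, and they were chosen after their values had been seen. The retinal dehydrogenase gene Aldh1a1 had 57.3 and 51.7 FPKM in WT, against 102 and 108 in MKRN1-null fat, with a log2 fold change of 0.94 and a standard error of 0.25. Gja1 and Clstn3 are among the 40 genes that were lower in both fat and liver. In liver Gja1 passed the filter only through WT, at 2.65 and 2.07 against 0.711 and 0.819. The gap junction gene Gja1 had 34.5 and 31.3 against 14.3 and 7.29, and Clstn3, which encodes a calsyntenin, 18.4 and 22.6 against 2.07 and 6.90. That the MKRN1-null libraries lay on the same side of WT in these genes follows from their choice as separated genes. For Clstn3 the lower of the MKRN1-null libraries was replicate 1, with few muscle transcripts.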
